A study of Homo sapiens with 12 samples.

Results

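Cells of Huh7, an established human hepatocellular carcinoma line, that had been given disulfiram alone were compared with cells of the same line in the solvent control. Genes entered the comparison when their level was at least 1 TPM in at least 3 of the 6 libraries of these groups, and 14368 of the 59191 features of the table met this. The disulfiram group holds 3 libraries and the control group holds 3 libraries. A column name gives dimethyl sulfoxide as the solvent of the controls, and neither group is labelled with a further agent or with a genetic change. Neither a dose unit nor a treatment length is stated in the sources used here. The series also holds cells given thalidomide and cells given both drugs, 3 libraries each, which served only to estimate the spread between replicates. TPM is a level per transcript length, scaled to the same sum in every library, so levels of different genes can be compared.

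Disulfiram blocks aldehyde dehydrogenases and is prescribed to deter drinking, since it lets acetaldehyde build up. Its metabolite diethyldithiocarbamate binds copper and other metals, and the copper complex carries metal into cells and is known to aggregate NPLOC4, an adaptor of the p97 segregase. Cells answer surplus metal through the zinc-sensing factor MTF1, which switches on metallothioneins, and answer misfolded protein through the heat shock factor HSF1. In liver cells, sterol sensing by the SREBP factors sets the genes of lipid synthesis, and ATF4 sets those of amino acid supply.

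All libraries summed to the same TPM total, which keeps no read depth, so no counting error can be given. Between 14206 and 14790 genes reached 1 TPM in the disulfiram libraries, and between 13693 and 14097 in the controls. Transcripts of the mitochondrial genome took 10.3% to 11.6% of the total in the disulfiram libraries and 10.8% to 11.4% in the controls. In a principal component analysis of the 6 libraries the first component, with 47.4% of the variance, separated the groups, and the second, with 18.9%, set disulfiram 2 apart from the other two disulfiram libraries. Genes rich in GC lay above their group mean in disulfiram 2 (Spearman's rho 0.63 across genes), against -0.51 and -0.32 in the other two disulfiram libraries and -0.19 to 0.13 in the controls. Across genes the difference between the groups did not follow GC content (rho 3.5e-05). The labels' protocol describes single cells from tumour tissue, whereas the table holds 1 column for each Huh7 sample. Nothing states that replicates were separate cultures, so each p-value reflects the spread among these libraries alone, which may be technical.

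With disulfiram, 1348 genes rose (9.38% of the genes tested) and 710 fell (4.94%), together 14.3%. The test was limma's moderated test on log2(TPM + 1), two-sided, with Benjamini-Hochberg adjustment over all 14368 genes and an adjusted p of 0.05 as the threshold. Fold changes are differences in mean log2(TPM + 1), disulfiram minus control, with their SE, and they understate the change of genes with low TPM. At least 2-fold changes were found for 244 of the genes that rose (1.7% of those tested) and for 63 that fell (0.438%), and at least 4-fold ones for 33 and 2. Of the calls, 65.5% were rises, against 44.9% (797 rises and 978 falls) after median-of-ratios scaling and 47.4% (861 and 956) after quantile normalization. All 797 rises and 709 of the falls under median-of-ratios scaling were also called without it. The rises numbered 863 without disulfiram 1, 754 without disulfiram 3, 809 without control 1 and 837 without control 3, and the falls 458 without disulfiram 3 and 447 without control 1. Without any 1 of the 6 libraries, 579 rises and 345 falls passed every time. In 3126 genes (21.8%) every disulfiram library was above every control library, and in 1713 (11.9%) every one was below.

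The calls were unevenly spread over expression levels. Among the 2111 genes with a mean below 2 TPM, 8.72% rose and 1.23% fell, whereas among the 1348 above 100 TPM, 9.2% rose and 15.2% fell. The median log2 fold change of all genes was 0.09, with 90% of the genes lying between -0.48 and 0.69. It was 0.16 in the lowest class and -0.01 in the highest. At the filter's edge, 585 genes reached 1 TPM in exactly 3 libraries and entered, and 654 reached it in 2 and did not. The filter let 201 genes in through the disulfiram libraries alone, of which 126 were called higher, and 32 through the controls alone, of which 13 were called lower. These genes had to differ in level to enter, so their calls and p-values are partly set by the filter. Of the genes described below, MT1B, TRBV30, CCL26, HSPA6, ALOXE3 and HLA-G were among those let in through the disulfiram libraries alone. COL4A1 was let in through the controls alone. The counts of the lists include such genes.

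**Figure D1:**
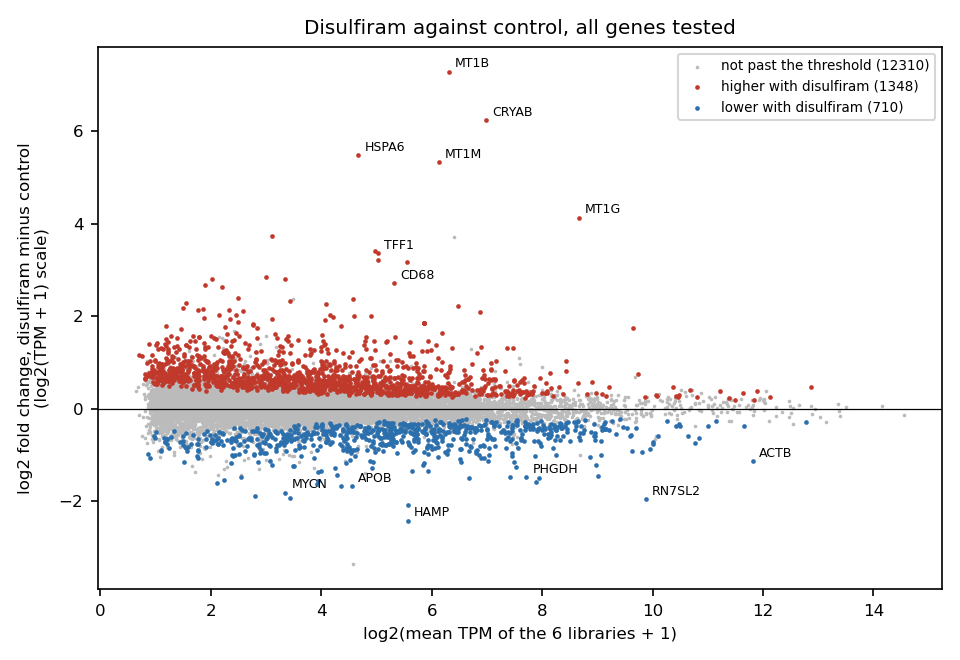
Log2 fold change (disulfiram minus control) of each of the 14368 genes tested against log2 of its mean TPM plus 1 over the 6 libraries, with each gene a point coloured by its call. The 1348 genes that rose and 710 that fell lie above and below 0, and the called genes furthest from 0 are metallothionein and heat shock genes above and include HAMP and RN7SL2 below; the height of MT1B, listed at 0 in the controls, depends on the pseudocount.

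Promoter sequences of 6 genes are given because each belongs to a gene group described below and carries letters known as a motif of that group. They are the 250 bases before the gene's start from RefSeq (GRCh38.p14), 5′ to 3′ on the gene's strand, with the matches on either strand in capitals. MT2A binds zinc and copper, and the capitals mark 7 matches to the metal response element core TGCNCNC (chr16:56608334-56608583, plus strand). HSPA6 is an inducible HSP70, and the capitals mark the heat shock element, read as GAA, 2 free bases, TTC, 2 free bases and GAA (chr1:161524290-161524539, plus strand). HSP90B1 is a chaperone of the endoplasmic reticulum, and the capitals mark 2 matches to the endoplasmic reticulum stress response element, read as CCAAT, 9 free bases and CCACG (chr12:103930160-103930409, plus strand). ASNS makes asparagine, and the capitals mark the CEBP-ATF response element TGATGNAA, which ATF4 is known to bind (chr7:97872409-97872658, minus strand). TNFAIP3 is a feedback inhibitor of NF-kB, and the capitals mark 2 matches to the NF-kB site, read as GGG, 2 free bases and TTTCC (chr6:137867009-137867258, plus strand). TAP1 carries peptides to MHC class I, and the capitals mark 2 overlapping matches to the interferon-stimulated response element, read as GAAA, 2 free bases and GAAA (chr6:32853705-32853954, minus strand).
MT2A: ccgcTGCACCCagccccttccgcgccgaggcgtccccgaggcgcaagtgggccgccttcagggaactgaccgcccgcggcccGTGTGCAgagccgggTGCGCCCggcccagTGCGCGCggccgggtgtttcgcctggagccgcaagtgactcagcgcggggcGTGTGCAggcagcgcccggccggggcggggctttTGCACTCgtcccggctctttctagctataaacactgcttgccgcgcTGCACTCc
HSPA6: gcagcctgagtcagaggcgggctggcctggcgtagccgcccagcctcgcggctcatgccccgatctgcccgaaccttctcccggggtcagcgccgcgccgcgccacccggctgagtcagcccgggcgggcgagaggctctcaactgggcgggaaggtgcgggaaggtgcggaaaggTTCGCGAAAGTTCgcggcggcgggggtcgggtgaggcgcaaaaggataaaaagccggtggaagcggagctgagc
HSP90B1: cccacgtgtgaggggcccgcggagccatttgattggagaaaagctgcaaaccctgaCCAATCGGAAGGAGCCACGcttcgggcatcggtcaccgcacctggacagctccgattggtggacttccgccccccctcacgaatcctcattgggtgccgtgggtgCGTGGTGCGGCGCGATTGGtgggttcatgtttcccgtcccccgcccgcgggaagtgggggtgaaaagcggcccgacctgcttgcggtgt
ASNS: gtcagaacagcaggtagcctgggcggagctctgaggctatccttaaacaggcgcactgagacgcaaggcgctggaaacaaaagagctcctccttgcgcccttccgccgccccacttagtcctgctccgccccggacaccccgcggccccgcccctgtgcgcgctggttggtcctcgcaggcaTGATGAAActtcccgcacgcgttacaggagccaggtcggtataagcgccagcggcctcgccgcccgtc
TNFAIP3: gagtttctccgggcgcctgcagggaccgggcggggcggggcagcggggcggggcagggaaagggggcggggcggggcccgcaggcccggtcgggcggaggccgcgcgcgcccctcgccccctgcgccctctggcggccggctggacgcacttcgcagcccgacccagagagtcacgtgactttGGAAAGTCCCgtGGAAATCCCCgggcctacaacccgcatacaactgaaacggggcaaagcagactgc
TAP1: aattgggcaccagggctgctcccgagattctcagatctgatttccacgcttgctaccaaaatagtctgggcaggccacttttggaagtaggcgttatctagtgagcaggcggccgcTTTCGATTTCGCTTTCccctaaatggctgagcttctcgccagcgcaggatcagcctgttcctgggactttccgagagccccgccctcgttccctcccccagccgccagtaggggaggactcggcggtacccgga

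Matches are a description of letters and not of binding. Promoters of 9971 of the 14098 symbols tested were in the table. The heat shock element stood in 0.439% of all 27305 promoters and in 4 of the 24 matched heat shock genes, HSPA6, HSPA8, DNAJB6 and CHORDC1, of which HSPA6 alone was called. The stress response element of the endoplasmic reticulum stood in 0.0806% of all promoters and in 7 of 40 of that group, namely HSPA5, HSP90B1, CALR, CANX, XBP1, CRELD2 and ERO1B. The first 5 of these fell, although CANX missed the threshold after quantile normalization (adjusted p = 0.0675). The CEBP-ATF element stood in 3.19% of all promoters and in 4 of 21 regulators of the integrated stress response, ASNS and CHAC1, which fell, ATF3, which rose, and PPP1R15B. The interferon element stood in 3.07% of all promoters, in 8 of 25 interferon response genes and in 7 of 15 genes of MHC class I presentation. The NF-kB site stood in 1.73% of all promoters and in 7 of 20 genes of NF-kB subunits and feedback. The metal response core stood in 48.4% of all promoters and in all 3 matched metallothionein promoters (MT2A, MT1B and MT1X), so a single match says little.

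The AP-1 site TGANTCA, read by FOS and JUN dimers, stood in 6.6% of all 27305 promoters and in 3.89% of those of the genes tested. It stood in 21 of the 141 matched promoters of genes that rose at least 2-fold (14.9%) and in 1 of the 35 of genes that fell at least 2-fold (2.86%). The NF-kB site stood in 9 of the same 141 (6.38%, against 1.98% of those tested) and the metal response core in 76 (53.9%, against 56.6%). The AP-1 site stood in 0 of 17 AP-1 and immediate early promoters and in 4 of 21 of amino acid carriers. The sterol regulatory element stood in 1 of 21 cholesterol and 0 of 19 fatty acid promoters. These shares were not tested.

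The largest rises combined metal-binding and heat shock genes with single genes of other roles. MT1B, a metallothionein (chr16:56651899-56653204 on hg38, plus strand), was at 155, 182 and 134 TPM in the 3 disulfiram libraries and listed at 0 in the 3 controls (adjusted p = 1.97e-09). TRBV30, a variable segment of the T cell receptor beta chain, was at 6.76, 6.41 and 5.02 TPM in the disulfiram libraries and listed at 0 in the controls, and CCL26, a chemokine gene, was at 5.56, 6.28 and 4.49 TPM in the disulfiram libraries and likewise listed at 0 in the controls. All 3 genes were therefore above 0 in every disulfiram library and in no control, and they entered the test through the disulfiram libraries alone. TFF1, a secreted trefoil peptide of mucosal surfaces (chr21:42362282-42366594 on hg38, minus strand), was at 63.6, 50.4 and 60.6 TPM in the disulfiram libraries and 3.91, 5.59 and 4.72 TPM in the controls (log2 fold change 3.37 ± 0.32, adjusted p = 8.71e-05). CD68, a lysosomal membrane glycoprotein used as a macrophage marker, was at 68.8, 66.5 and 67.4 TPM in the disulfiram libraries and 5.08, 13.8 and 11.7 TPM in the controls (log2 fold change 2.71 ± 0.27, adjusted p = 9.44e-05). Its 3 disulfiram values lay within a narrow range, and control 1 was the lowest of the controls. PTPRC, which marks leukocytes in general, was at no more than 0.16 TPM in any of the 6 libraries.

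ALOXE3, a lipoxygenase of the skin barrier, was at 5.42, 9.07 and 6.24 TPM in the disulfiram libraries and 0.51, 0.27 and 0.02 TPM in the controls (log2 fold change 2.63 ± 0.22, adjusted p = 2.84e-05). S100A3, a calcium- and zinc-binding protein, was at 7.89, 9.13 and 8.26 TPM in the disulfiram libraries and 0.5, 0.53 and 1.48 TPM in the controls (log2 fold change 2.40 ± 0.19, adjusted p = 2.6e-05). LTB, the lymphotoxin beta chain of the TNF family, was at 37.7, 38.7 and 38.3 TPM in the disulfiram libraries and 3.42, 8.81 and 9.17 TPM in the controls (log2 fold change 2.37 ± 0.29, adjusted p = 0.000388). In all 3 the groups were separate, with control 1 the lowest library for LTB and control 3 the lowest for ALOXE3. The histone gene HIST2H2AA4 has a near-identical copy, so its values are uncertain. It was at 50.5, 53 and 53.4 TPM in the disulfiram libraries and 0, 19.3 and 5.05 TPM in the controls (log2 fold change 3.42 ± 0.76, adjusted p = 0.0112), with a log2 fold change of 2.26 without control 1 and 4.44 without control 2.

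The largest falls were in genes of several roles. HAMP, the iron hormone hepcidin, was at 9.95, 14.9 and 11.2 TPM in the disulfiram libraries and 146, 61.7 and 34.2 TPM in the controls (log2 fold change -2.42 ± 0.42, adjusted p = 0.00326). The control libraries differed widely among themselves, with control 1 highest and control 3 lowest, and all stood above the disulfiram libraries. UNC5B, a netrin receptor, was at 3.14, 3.50 and 3.43 TPM in the disulfiram libraries and 21.4, 17.1 and 10.2 TPM in the controls (log2 fold change -1.93 ± 0.23, adjusted p = 0.000354). DDC, the decarboxylase that makes dopamine and serotonin (chr7:50458436-50565457 on hg38, minus strand), was at 8.78, 5.64 and 6.06 TPM in the disulfiram libraries and 23.1, 20.7 and 21.5 TPM in the controls (log2 fold change -1.56 ± 0.15, adjusted p = 9.4e-05). ATOH8, a basic helix-loop-helix factor that is induced by bone morphogenetic proteins in liver, was at 1.62, 1.46 and 2.97 TPM in the disulfiram libraries and 11.7, 6.48 and 4.91 TPM in the controls (log2 fold change -1.49 ± 0.27, adjusted p = 0.00405). In UNC5B and ATOH8 control 1 was the highest library and control 3 the lowest control.

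**Figure D2:**
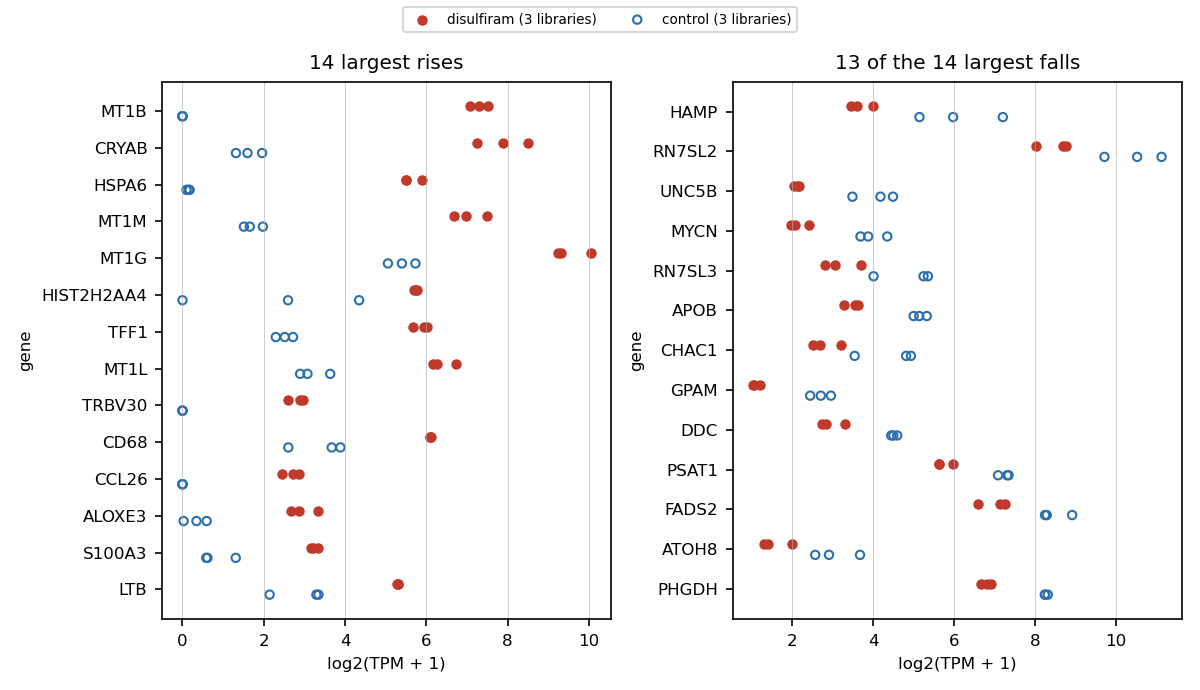
Log2(TPM + 1) in each of the 3 disulfiram libraries (filled points) and 3 control libraries (open points) for the 14 largest rises (left) and 13 of the 14 largest falls (right), 1 gene a row. Genes with libraries that do not overlap were required by the choice, and the spread differs between genes, with HIST2H2AA4 and RN7SL2 wide in the controls and CD68 and LTB narrow with disulfiram.

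Metallothioneins, small cysteine-rich proteins that bind zinc and copper, rose nearly throughout. Of the 12 listed genes 9 were tested, 8 rose (88.9%, against 9.38% of all genes) and 0 fell, and all 8 passed without any 1 library. The median log2 fold change of the 9 was 2.22, the value of MT1A and so not set by MT1B, against 0.09 over all genes. Summed over the 12 genes, metallothionein transcripts made 4257, 2596 and 2493 TPM in the disulfiram libraries and 576, 842 and 880.0 TPM in the controls. Disulfiram 1 was the highest library of its group and control 1 the lowest of its group. MT1G was at 1059, 602 and 633 TPM in the disulfiram libraries and 32.2, 41.2 and 52.1 TPM in the controls (log2 fold change 4.14 ± 0.26, adjusted p = 2.72e-06). MT2A, whose promoter holds 7 metal response cores, was at 1819, 957 and 932 TPM in the disulfiram libraries and 285, 385 and 391 TPM in the controls (log2 fold change 1.74 ± 0.26, adjusted p = 0.00122).

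Disulfiram 1 again held the highest values of both genes. MT1A was at 180.0, 152 and 101.3 TPM in the disulfiram libraries and 17.7, 39.3 and 36.3 TPM in the controls (log2 fold change 2.22 ± 0.29, adjusted p = 0.000566), and MT1L, annotated as a transcribed pseudogene, was at 105, 70.3 and 76.3 TPM in the disulfiram libraries and 6.44, 7.43 and 11.4 TPM in the controls (log2 fold change 3.18 ± 0.26, adjusted p = 2.6e-05). MT1E (log2 fold change 1.31 ± 0.28) and MT1F (1.3 ± 0.16) rose as well. MT1X, the member at 305, 217 and 208 TPM in the disulfiram libraries and 129.8, 207 and 229 TPM in the controls, did not pass the threshold (log2 fold change 0.39 ± 0.22, adjusted p = 0.279). These genes neighbour each other on chromosome 16 and resemble one another in sequence, so the share of reads that each received is uncertain. MT1M lies at chr16:56632233-56633986 on hg38, plus strand and MT1G at chr16:56666731-56668065 on hg38, minus strand.

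Few zinc carriers passed the test. Of 19 tested genes of 21 listed, 1 rose and 0 fell, which is below the 9.38% of all genes that rose, and the list median was 0.08, or -0.03 after quantile normalization. The zinc exporter SLC30A1, which like metallothioneins is a known MTF1 target, was at 10.9, 5.92 and 7.73 TPM in the disulfiram libraries and 3.76, 5.96 and 5.99 TPM in the controls and did not pass (log2 fold change 0.55 ± 0.26, adjusted p = 0.186). MTF1 itself was at 3.64, 2.32 and 3.16 TPM in the disulfiram libraries and 2.16, 2.36 and 2.33 TPM in the controls (log2 fold change 0.29 ± 0.15, adjusted p = 0.23). The 1 gene that rose was SLC39A13, a zinc importer of the secretory pathway, at 28.3, 28.5 and 26.6 TPM in the disulfiram libraries and 20.4, 21.1 and 17.2 TPM in the controls (log2 fold change 0.49 ± 0.13, adjusted p = 0.0293). It missed the threshold after median-of-ratios scaling (adjusted p = 0.0915) and quantile normalization (0.0831), and without any 1 library other than control 2 (0.0602 to 0.112).

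Some heat shock genes rose. Of 27 tested of 29 listed, 8 rose (29.6%, against 9.38% of all genes), 2 fell (7.41%, against 4.94%) and 17 did not pass. The median was 0.18, and the rises were HSPA1A, HSPA1B, HSPA1L, HSPA6, DNAJB1, DNAJB2, CRYAB and BAG3. All 8 rises passed without any 1 library, whereas the number falling was 1 without disulfiram 3 or any 1 control. CRYAB, the small heat shock protein alpha-B crystallin, was at 151, 360.3 and 236 TPM in the disulfiram libraries and 2.03, 2.89 and 1.49 TPM in the controls (log2 fold change 6.25 ± 0.26, adjusted p = 5.9e-08). HSPA6, whose promoter is printed above, was at 43.9, 58.5 and 44 TPM in the disulfiram libraries and 0.13, 0.07 and 0.11 TPM in the controls (log2 fold change 5.48 ± 0.18, adjusted p = 5.98e-09). Both were highest in disulfiram 2, and HSPA6 entered the test through the disulfiram libraries alone. HSPA1A, the main inducible HSP70, was at 245, 293 and 213 TPM in the disulfiram libraries and 83.8, 99.5 and 118 TPM in the controls (log2 fold change 1.31 ± 0.23, adjusted p = 0.00323). Its near-identical copy HSPA1B was at 176, 196 and 161 TPM in the disulfiram libraries and 75.4, 92.9 and 100.96 TPM in the controls (log2 fold change 0.98 ± 0.17, adjusted p = 0.00302), and reads of the pair cannot be assigned with certainty.

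The co-chaperones DNAJB1 (log2 fold change 0.59 ± 0.10), DNAJB2 (0.84 ± 0.09) and BAG3 (0.64 ± 0.11) and the testis-enriched HSPA1L (1.13 ± 0.15) rose too. The falls were HSP90AB1, the cytosolic HSP90 beta, which fell by 0.41 on the log2 scale (SE 0.06), and the HSP90 co-chaperone FKBP4, which fell by 0.36 (SE 0.10). HSPA8, the constitutive HSP70, was at 678, 548 and 523 TPM in the disulfiram libraries and 663, 744 and 832 TPM in the controls (log2 fold change -0.36 ± 0.20, adjusted p = 0.263). The mitochondrial chaperone HSPD1 was at 169.9, 114 and 158 TPM in the disulfiram libraries and 204, 226 and 207 TPM in the controls (log2 fold change -0.54 ± 0.18, adjusted p = 0.0636). The TPM sum of the 29 genes was 4926 to 5472 in the disulfiram libraries and 5166 to 5454 in the controls, ranges that overlap. With median-of-ratios scaling 8 rose and 4 fell.

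**Figure D3:**
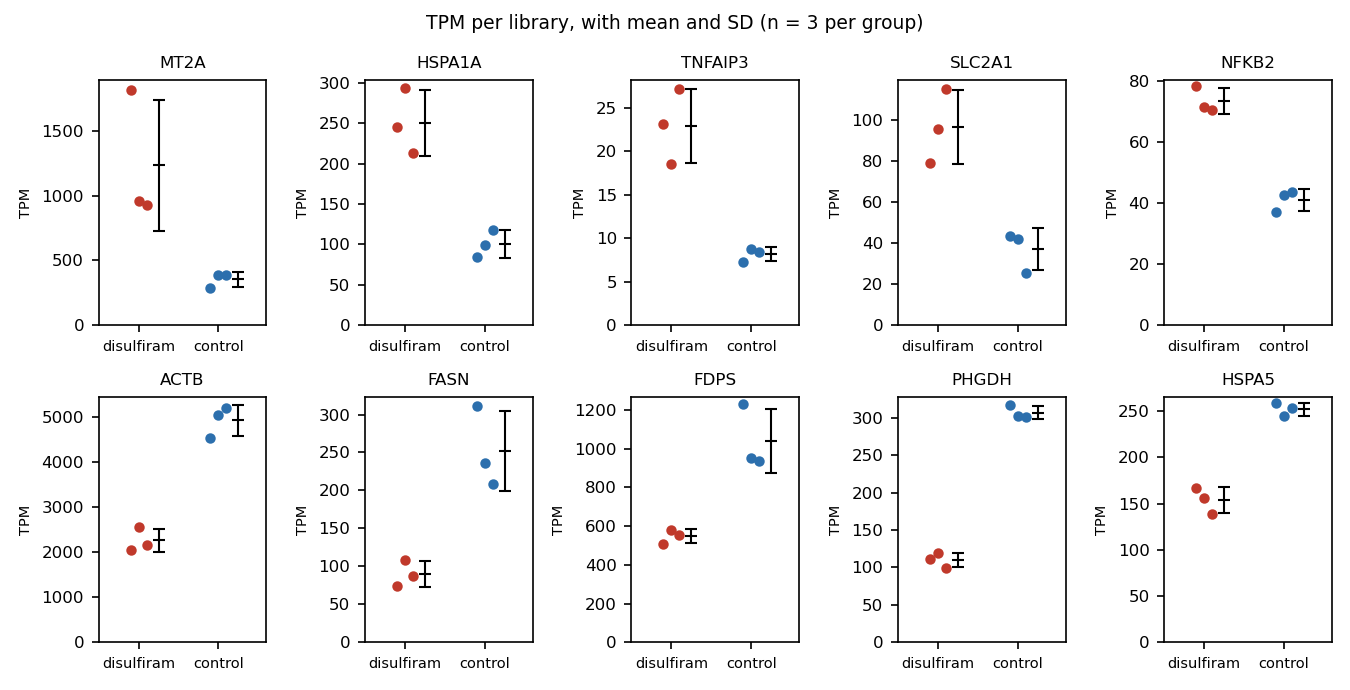
TPM in each library of 10 genes, disulfiram left and control right in each panel, with 3 libraries as points and their mean and SD beside them. MT2A, HSPA1A, TNFAIP3, SLC2A1 and NFKB2 lie higher with disulfiram, and ACTB, FASN, FDPS, PHGDH and HSPA5 lie lower, with no overlap of the libraries in any of the 10.

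Copper and iron genes fell more often than they rose. Of 28 tested of 29 listed, 3 rose and 6 fell (10.7% and 21.4%, against 9.38% and 4.94% of all genes), with a median of -0.16. The falls were hepcidin, SMAD6, ID1, TFR2, STEAP3 and ATP7B, and all 6 passed without any 1 library. Hepcidin is switched on by bone morphogenetic protein signalling through SMAD proteins, and 2 further targets of that signalling fell. SMAD6, an inhibitor that the pathway itself induces, was at 6.33, 8.15 and 7.53 TPM in the disulfiram libraries and 29.1, 17.7 and 16.9 TPM in the controls (log2 fold change -1.38 ± 0.18, adjusted p = 0.000493). ID1, an inhibitor of basic helix-loop-helix factors, was at 1148, 1436 and 1317 TPM in the disulfiram libraries and 2421, 2202 and 1922 TPM in the controls (log2 fold change -0.75 ± 0.10, adjusted p = 0.000611). In both genes control 1 was the highest library, as it was for HAMP and ATOH8. SMAD7, a further inhibitor of the pathway, did not pass (log2 fold change -0.19 ± 0.13, adjusted p = 0.36), and its liver ligand BMP6 rose (log2 fold change 0.66 ± 0.16, adjusted p = 0.0191).

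TFR2, the hepatic transferrin sensor, was at 11.9, 14.7 and 15.1 TPM in the disulfiram libraries and 36, 28.4 and 19.6 TPM in the controls (log2 fold change -0.92 ± 0.19, adjusted p = 0.00814). STEAP3, a ferric reductase of endosomes, was at 9.25, 9.29 and 7.80 TPM in the disulfiram libraries and 13.8, 16 and 13.9 TPM in the controls (log2 fold change -0.67 ± 0.11, adjusted p = 0.00226). The copper exporter ATP7B fell (log2 fold change -0.60 ± 0.13, adjusted p = 0.00862), whereas the copper importer SLC31A1 did not pass (log2 fold change -0.19 ± 0.10, adjusted p = 0.262). CCS, which loads copper into superoxide dismutase, rose (log2 fold change 0.38 ± 0.07, adjusted p = 0.00613), as did the heme oxygenase HMOX1 (log2 fold change 0.56 ± 0.11, adjusted p = 0.00617). The ferritin chains FTH1 (0.04 ± 0.07) and FTL (-0.16 ± 0.07) and the transferrin receptor TFRC (0.08 ± 0.21) did not pass.

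Some aldehyde dehydrogenases, the family that disulfiram blocks, fell. Of 15 tested of 18 listed, 4 fell, 0 rose and 11 did not pass, against 4.94% of all genes falling, with a median of -0.22. Without disulfiram 3 or without control 3 the number falling was 2, and 2 of the 4 passed without any 1 library. ALDH2, which clears acetaldehyde in mitochondria, was at 29.4, 30.5 and 28.6 TPM in the disulfiram libraries and 46.8, 48.3 and 45.9 TPM in the controls (log2 fold change -0.65 ± 0.09, adjusted p = 0.000992). ALDH7A1, a lysine-degrading enzyme, was at 38.1, 40.5 and 39.5 TPM in the disulfiram libraries and 62.6, 59 and 50.5 TPM in the controls (log2 fold change -0.53 ± 0.10, adjusted p = 0.00587). For both genes the groups were separate. ALDH1A1, a cytosolic retinal dehydrogenase, was at 474, 296 and 399.6 TPM in the disulfiram libraries and 481, 666 and 605 TPM in the controls (log2 fold change -0.60 ± 0.18, adjusted p = 0.0493), and it missed the threshold with the 6 libraries alone (adjusted p = 0.0703). In that fit 2 of the family fell.

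Few p97 and proteasome genes passed the test. Of 33 tested, 1 rose (3.03%, against 9.38% of all genes) and 0 fell, with a median of 0.11 and all members between -0.23 and 0.41. The 1 was UFD1, the partner of NPLOC4 on p97, at 204, 195 and 207 TPM in the disulfiram libraries and 146, 149 and 161 TPM in the controls (log2 fold change 0.41 ± 0.12, adjusted p = 0.0447). It missed the threshold after median-of-ratios scaling (adjusted p = 0.161), with no filter (0.095), without a mean-variance trend (0.0723) and without any 1 library (0.0641 to 0.128). NPLOC4 was at 59.97, 67.3 and 61.3 TPM in the disulfiram libraries and 65.7, 68.7 and 73.2 TPM in the controls, with a log2 fold change of -0.14 ± 0.09 (adjusted p = 0.359), and the groups overlapped.

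Most detoxifying enzymes did not pass the test, and those that did moved both ways. Of 31 antioxidant and glutathione genes 3 rose and 4 fell (9.68% and 12.9%, against 9.38% and 4.94% of all genes). Their median of 0.02 turned negative after both other scalings. The rises numbered 1 without disulfiram 1 or control 1 and 5 without disulfiram 2, and the falls 2 without control 3. EPHX1, the microsomal epoxide hydrolase, was at 166, 174 and 177 TPM in the disulfiram libraries and 89.6, 96 and 101.5 TPM in the controls (log2 fold change 0.84 ± 0.09, adjusted p = 0.000201). NQO1, a quinone reductase and common NRF2 target, was at 354, 406 and 382 TPM in the disulfiram libraries and 666, 534 and 648 TPM in the controls (log2 fold change -0.69 ± 0.11, adjusted p = 0.00161). PGD, of the pentose phosphate pathway, was at 170.3, 205 and 178 TPM in the disulfiram libraries and 337, 294 and 298 TPM in the controls (log2 fold change -0.75 ± 0.08, adjusted p = 0.000256). The mitochondrial superoxide dismutase SOD2 rose (log2 fold change 0.80 ± 0.20, adjusted p = 0.0202). EPHX1 was above every control in each disulfiram library, and NQO1 and PGD were below. The NRF2-controlled GCLM (-0.14 ± 0.24), SRXN1 (0.18 ± 0.15) and TXNRD1 (0.22 ± 0.25) did not pass. Of 18 tested cytochrome P450 and conjugation genes of 40 listed, 2 rose and 1 fell (11.1% and 5.56%), near the shares of all genes. Each of the 3 missed the threshold in some fit that left out 1 library. The rises were UGT2B4 (log2 fold change 0.80 ± 0.23) and CYP2R1 (0.41 ± 0.12), and the fall was SULT1A1 (-0.56 ± 0.14).

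Most genes of cholesterol synthesis and uptake fell. Of 28 tested genes 19 fell (67.9%, against 4.94% of all genes) and 0 rose, with a median of -0.55. Of the falls, 14 passed without any 1 library. In 19 of the 28 every disulfiram library was below every control, as it was in 11.9% of all genes. Without control 2, 1 gene of the list rose. Summed over the 28 genes their transcripts made 2215, 2446 and 2379 TPM in the disulfiram libraries and 4396, 3619 and 3429 TPM in the controls, a ratio of 0.615. INSIG1, a sterol-dependent anchor of the SREBP machinery, was at 14.8, 14 and 15.1 TPM in the disulfiram libraries and 45.2, 26.9 and 24.5 TPM in the controls (log2 fold change -1.03 ± 0.18, adjusted p = 0.00349). FDPS, which makes farnesyl diphosphate, was at 510.1, 582 and 553 TPM in the disulfiram libraries and 1230.0, 953 and 935 TPM in the controls (log2 fold change -0.91 ± 0.10, adjusted p = 0.000259). In both genes control 1 stood highest.

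DHCR7, which makes cholesterol from its last precursor, was at 102, 133 and 117 TPM in the disulfiram libraries and 270.0, 224 and 194 TPM in the controls (log2 fold change -0.96 ± 0.14, adjusted p = 0.0013). ACAT2, the first step of the pathway in the cytosol, was at 45.6, 45.4 and 42.2 TPM in the disulfiram libraries and 97.3, 75 and 74.3 TPM in the controls (log2 fold change -0.86 ± 0.12, adjusted p = 0.000746). The factor gene SREBF2 fell too (log2 fold change -0.43 ± 0.12, adjusted p = 0.0371). INSIG2, a relative of INSIG1, had the highest log2 fold change of the list and did not pass (log2 fold change 0.94 ± 0.38, adjusted p = 0.121).

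Part of the fatty acid and triglyceride genes fell. Of 23 tested of 24 listed, 11 fell (47.8%, against 4.94% of all genes) and 0 rose, with a median of -0.37. SREBF1, the factor of fatty acid synthesis, was at 59.5, 88.6 and 82.3 TPM in the disulfiram libraries and 153, 162 and 162 TPM in the controls (log2 fold change -1.06 ± 0.13, adjusted p = 0.000388). FASN, the fatty acid synthase, was at 74.8, 108 and 86.8 TPM in the disulfiram libraries and 311, 237 and 208 TPM in the controls (log2 fold change -1.47 ± 0.18, adjusted p = 0.000361). SCD, which puts the first double bond into fatty acids, was at 236, 343 and 333 TPM in the disulfiram libraries and 879.7, 649 and 587 TPM in the controls (log2 fold change -1.21 ± 0.17, adjusted p = 0.000893). In all 3 the groups were separate, and disulfiram 1 was the lowest library. FADS2, a desaturase of polyunsaturated fatty acids, was at 94.3, 150.4 and 139 TPM in the disulfiram libraries and 481, 311 and 302 TPM in the controls (log2 fold change -1.50 ± 0.20, adjusted p = 0.0007). GPAM, the first step of triglyceride assembly, was at 1.04, 1.3 and 1.06 TPM in the disulfiram libraries and 4.42, 6.73 and 5.50 TPM in the controls (log2 fold change -1.61 ± 0.22, adjusted p = 0.000868).

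Fatty acid oxidation was mixed. Of 29 tested of 31 listed, 3 rose and 4 fell (10.3% and 13.8%, against 9.38% and 4.94% of all genes), with a median of -0.09. Under either median-of-ratios scaling or a correction for GC content, 7 fell. The 3 rises were CREB3L3, ANGPTL4 and PLIN2, and 1 was called without disulfiram 1, disulfiram 3 or control 3. CREB3L3, a membrane-bound factor of the fasting liver, was at 77.8, 50.7 and 65.8 TPM in the disulfiram libraries and 28, 39.3 and 37.1 TPM in the controls (log2 fold change 0.87 ± 0.16, adjusted p = 0.00433). ANGPTL4, an inhibitor of lipoprotein lipase that also answers hypoxia, rose (log2 fold change 1.37 ± 0.36, adjusted p = 0.0263), as did PLIN2, which coats lipid droplets (log2 fold change 0.67 ± 0.18, adjusted p = 0.0281). The falls were enzymes of the mitochondrial spiral: HADH (-0.59 ± 0.11), ECI1 (-0.57 ± 0.11), ETFB (-0.44 ± 0.09) and ECHS1 (-0.33 ± 0.08). The rate-setting carnitine transferase CPT1A did not pass (0.21 ± 0.16).

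Amino acid breakdown and the urea cycle fell in part. Of 24 tested of 32 listed, 1 rose and 8 fell (4.17% and 33.3%, against 9.38% and 4.94% of all genes), with a median of -0.17. ASS1, which makes argininosuccinate, was at 57.9, 70.3 and 63.1 TPM in the disulfiram libraries and 118, 113 and 119 TPM in the controls (log2 fold change -0.86 ± 0.12, adjusted p = 0.0009). GLUD1, the glutamate dehydrogenase, was at 72.1, 71.4 and 80.9 TPM in the disulfiram libraries and 154, 119 and 128 TPM in the controls (log2 fold change -0.82 ± 0.17, adjusted p = 0.00698). SLC25A15, the mitochondrial ornithine carrier, fell (-0.63 ± 0.11), as did PCK2, the mitochondrial PEP carboxykinase (-0.61 ± 0.11). The 1 rise was ARG2, the mitochondrial arginase, at 12.4, 8.49 and 10.3 TPM in the disulfiram libraries and 6.56, 6.25 and 6.41 TPM in the controls (log2 fold change 0.61 ± 0.13, adjusted p = 0.0104).

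Most serine and one-carbon enzymes fell. Of 21 tested of 23 listed, 14 fell (66.7%, against 4.94% of all genes) and 0 rose, with a median of -0.56. Of the falls, 9 passed without any 1 library. PHGDH, which takes carbon from glycolysis into serine (chr1:119648411-119744226 on hg38, plus strand), was at 111, 119.5 and 99.8 TPM in the disulfiram libraries and 316, 302 and 300.5 TPM in the controls (log2 fold change -1.47 ± 0.11, adjusted p = 8.72e-06). PSAT1, the next step, was at 61.5, 47.9 and 48.3 TPM in the disulfiram libraries and 134, 161 and 157 TPM in the controls (log2 fold change -1.51 ± 0.12, adjusted p = 2.84e-05). PSPH, the last step, was at 70.1, 69.2 and 72.5 TPM in the disulfiram libraries and 97.7, 115 and 121 TPM in the controls (log2 fold change -0.65 ± 0.12, adjusted p = 0.00534). All 3 steps of serine synthesis therefore fell with separate groups. CBS, of the route from homocysteine to cysteine, was at 22.7, 31.1 and 28.2 TPM in the disulfiram libraries and 53.5, 54.9 and 51.7 TPM in the controls (log2 fold change -0.95 ± 0.12, adjusted p = 0.000451). MTHFD2, of the mitochondrial folate cycle, was at 24.4, 17.7 and 21.4 TPM in the disulfiram libraries and 36, 39.9 and 40.5 TPM in the controls (log2 fold change -0.85 ± 0.15, adjusted p = 0.00284).

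Amino acid carriers and tRNA synthetases fell in part. Of 23 tested carriers of 27 listed, 1 rose and 6 fell (4.35% and 26.1%, against 9.38% and 4.94% of all genes), with a median of -0.18. The 1 rise was called in 0 of the fits without disulfiram 1, disulfiram 3 or any 1 control. SLC7A5, the large neutral amino acid carrier, was at 32.8, 39 and 27.8 TPM in the disulfiram libraries and 73.4, 85.2 and 100.4 TPM in the controls (log2 fold change -1.35 ± 0.16, adjusted p = 0.000269). Its partner chain SLC3A2 did not pass (log2 fold change 0.22 ± 0.14, adjusted p = 0.321). The arginine and lysine carrier SLC7A1 (-0.92 ± 0.14), the glycine carrier SLC6A9 (-0.84 ± 0.15), the glutamine carrier SLC1A5 (-0.63 ± 0.11) and the branched-chain carrier SLC43A1 (-0.51 ± 0.10) fell. Of 23 cytosolic synthetase genes 8 fell (34.8%, against 4.94% of all genes) and 0 rose, with a median of -0.36. YARS, which charges tyrosine, was at 71.7, 86.7 and 71.3 TPM in the disulfiram libraries and 145, 151 and 164 TPM in the controls (log2 fold change -1.0 ± 0.10, adjusted p = 8.71e-05). AARS, which charges alanine, was at 132, 146 and 123 TPM in the disulfiram libraries and 238, 242 and 248 TPM in the controls (log2 fold change -0.86 ± 0.08, adjusted p = 6.42e-05). IARS (-0.93 ± 0.15), GARS (-0.78 ± 0.13) and VARS (-0.72 ± 0.12) fell as well, whereas RARS (0.31 ± 0.18), KARS (0.30 ± 0.10) and QARS (0.12 ± 0.10), which charge arginine, lysine and glutamine, did not pass.

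Regulators of the integrated stress response split into a larger set that fell and a smaller one that rose. Of 24 tested of 25 listed, 4 rose and 8 fell (16.7% and 33.3%, against 9.38% and 4.94% of all genes), with a median of -0.13. ATF4, the response's main factor, fell (log2 fold change -0.68 ± 0.11, adjusted p = 0.00272), and ASNS was at 38.5, 30.0 and 32.8 TPM in the disulfiram libraries and 70.2, 84.9 and 82.8 TPM in the controls (log2 fold change -1.21 ± 0.15, adjusted p = 0.000376). CHAC1, which degrades glutathione, was at 5.37, 8.22 and 4.69 TPM in the disulfiram libraries and 10.6, 29.4 and 27 TPM in the controls (log2 fold change -1.63 ± 0.31, adjusted p = 0.00512). Control 1 was far below the other controls for CHAC1 but above all disulfiram libraries. EIF4EBP1, a brake on cap-dependent translation, was at 116, 122 and 103 TPM in the disulfiram libraries and 204, 243 and 256 TPM in the controls (log2 fold change -1.03 ± 0.10, adjusted p = 0.000111). JDP2, a repressor of the AP-1 family, fell too (-1.16 ± 0.16). ATF3, a stress-induced factor that is also an immediate early gene, was at 50.2, 41.6 and 38.7 TPM in the disulfiram libraries and 17.3, 19.4 and 15.7 TPM in the controls (log2 fold change 1.27 ± 0.18, adjusted p = 0.000983). DDIT3 (0.73 ± 0.15), DDIT4 (1.00 ± 0.26) and PPP1R15A (0.84 ± 0.09) rose with it.

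Part of the chaperones and entry machinery of the endoplasmic reticulum fell. Of 41 tested genes 16 fell, 0 rose and 25 did not pass, against 4.94% of all genes falling and 9.38% rising. The list median was -0.23, and 11 of the falls passed without any 1 library. A rise was called for 1 gene after quantile normalization, with the 6 libraries alone and without disulfiram 2, and for 2 genes with the GC correction. Their summed transcripts made 6137, 6601 and 6058 TPM in the disulfiram libraries and 8715, 8010 and 8122 TPM in the controls, a ratio of 0.757. HSPA5, the lumenal HSP70 known as BiP, was at 167, 156 and 139 TPM in the disulfiram libraries and 258, 244 and 253 TPM in the controls (log2 fold change -0.71 ± 0.13, adjusted p = 0.00354). PDIA4, a disulfide isomerase, was at 100.8, 126 and 105 TPM in the disulfiram libraries and 272, 233 and 234 TPM in the controls (log2 fold change -1.15 ± 0.11, adjusted p = 8.71e-05). HSP90B1, whose promoter is printed above, was at 54.4, 41.9 and 58.4 TPM in the disulfiram libraries and 111, 104 and 91.5 TPM in the controls (log2 fold change -0.98 ± 0.19, adjusted p = 0.0064). In all 3 the groups were separate. HYOU1 (-0.90 ± 0.14) and SDF2L1 (-0.89 ± 0.17), both lumenal chaperone partners, fell as well. XBP1, a factor of the unfolded protein response, fell (log2 fold change -0.45 ± 0.08, adjusted p = 0.00273), and ERO1A, an oxidase that also answers hypoxia, had the highest log2 fold change of the list and did not pass (log2 fold change 0.79 ± 0.31, adjusted p = 0.113).

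Many of the tested interferon response genes rose, antiviral effectors and signalling factors among them. Of 32 tested of 44 listed, 17 rose (53.1%, against 9.38% of all genes) and 0 fell, with a median of 0.55. Of the rises, 13 passed without any 1 library. Listed genes that were below the filter and not tested include IFIT1, IFIT2, IFIT3, IFI27, IFI44, OAS2, OASL, IRF7 and BST2. GBP1, an interferon-induced GTPase, was at 21.5, 11 and 18.4 TPM in the disulfiram libraries and 1.67, 2.67 and 3.27 TPM in the controls (log2 fold change 2.32 ± 0.26, adjusted p = 0.000229). IRF9, the DNA-binding part of the type I interferon complex, was at 30.9, 26.7 and 34.4 TPM in the disulfiram libraries and 7.87, 10.0 and 6.92 TPM in the controls (log2 fold change 1.78 ± 0.14, adjusted p = 2.6e-05). OAS1, a sensor of double-stranded RNA, was at 30.0, 17.5 and 18.3 TPM in the disulfiram libraries and 5.65, 10.5 and 8.13 TPM in the controls (log2 fold change 1.33 ± 0.23, adjusted p = 0.00341). Disulfiram 2 was the lowest of its group for these 3 genes and still above every control. OAS3, of the same family, was at 26, 20.8 and 23 TPM in the disulfiram libraries and 6.91, 10.2 and 9.71 TPM in the controls (log2 fold change 1.3 ± 0.14, adjusted p = 0.000187). MX1, an antiviral GTPase, was at 3.10, 3.21 and 3.07 TPM in the disulfiram libraries and 0.86, 1.49 and 1.11 TPM in the controls (log2 fold change 0.95 ± 0.14, adjusted p = 0.00145). STAT2, a further part of that complex, rose (log2 fold change 0.68 ± 0.11, adjusted p = 0.0019).

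Most genes of MHC class I presentation rose. Of 19 tested of 21 listed, 12 rose (63.2%, against 9.38% of all genes), 5 did not pass and 2 fell (10.5%, against 4.94%). The median was 0.75. The falls were CALR and PDIA3, chaperones shared with the endoplasmic reticulum list. TAP1, whose promoter is printed above, was at 23.2, 20.4 and 23.6 TPM in the disulfiram libraries and 10.1, 11.7 and 11.9 TPM in the controls (log2 fold change 0.93 ± 0.11, adjusted p = 0.000327). TAP2, the partner chain of the peptide carrier, was at 15.9, 8.77 and 5.21 TPM in the disulfiram libraries and 0.77, 2.42 and 3.47 TPM in the controls (log2 fold change 1.75 ± 0.39, adjusted p = 0.0119). PSMB9, a subunit of the immunoproteasome, was at 22.5, 15.8 and 23.6 TPM in the disulfiram libraries and 7.74, 11.3 and 10.1 TPM in the controls (log2 fold change 1.01 ± 0.22, adjusted p = 0.0102). TAP1 varied little within the groups, whereas TAP2 was far higher in disulfiram 1 than in disulfiram 3. HLA-G was at 1.62, 3.09 and 2.92 TPM in the disulfiram libraries and 0, 0.04 and 0 TPM in the controls (log2 fold change 1.78 ± 0.17, adjusted p = 9.24e-05). HLA-G entered the test through the disulfiram libraries alone. HLA genes resemble one another, so their values are uncertain.

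Most NF-kB subunits and feedback genes rose. Of 22 tested of 24 listed, 14 rose (63.6%, against 9.38% of all genes) and 0 fell, with a median of 0.49. Of the rises, 8 passed without any 1 library, and 9 rose without disulfiram 1 or control 1. NFKB2, a subunit of the noncanonical pathway, was at 78.3, 71.6 and 70.5 TPM in the disulfiram libraries and 37, 42.6 and 43.6 TPM in the controls (log2 fold change 0.82 ± 0.10, adjusted p = 0.000422). Its partner RELB was at 27.7, 33 and 29.7 TPM in the disulfiram libraries and 18.4, 17.8 and 17.2 TPM in the controls (log2 fold change 0.72 ± 0.11, adjusted p = 0.00145). TNFAIP3 was at 23.1, 18.5 and 27.1 TPM in the disulfiram libraries and 7.32, 8.81 and 8.43 TPM in the controls (log2 fold change 1.37 ± 0.13, adjusted p = 9.44e-05). The groups were separate in all 3. Also raised were IKBKE, an IKK-related kinase (0.78 ± 0.15), TNIP1, which works with TNFAIP3 (0.74 ± 0.13), and BIRC3, an inhibitor of apoptosis (1.29 ± 0.29). The quick feedback inhibitor NFKBIA did not pass (log2 fold change 0.12 ± 0.08, adjusted p = 0.373), nor did the canonical subunit NFKB1 (log2 fold change 0.25 ± 0.10, adjusted p = 0.13).

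Chemokines and cytokines were mixed, 6 of 18 tested of 28 listed rising and 3 falling, with a median of 0.33. These shares were 33.3% and 16.7%, against 9.38% and 4.94% of all genes. The rises numbered 2 without control 1 and 3 without disulfiram 3 or control 2, and 2 passed without any 1 library. The falls numbered 0 without disulfiram 1, disulfiram 3 or control 1 and 1 without control 2 or control 3. CSF1, the macrophage growth factor, was at 11.5, 15.7 and 10.8 TPM in the disulfiram libraries and 3.47, 4.68 and 4.72 TPM in the controls (log2 fold change 1.36 ± 0.17, adjusted p = 0.000404). CXCL3 (0.94 ± 0.22) and CXCL6 (0.83 ± 0.19) rose, whereas their relative CXCL1 was called lower (-0.61 ± 0.16), a call that ended without disulfiram 1, disulfiram 3 or control 1, and CXCL8 did not pass (log2 fold change 0.20 ± 0.30, adjusted p = 0.711).

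Most AP-1 and other immediate early genes rose. Of 22 tested of 24 listed, 13 rose (59.1%, against 9.38% of all genes) and 0 fell, with a median of 0.60. Of the rises, 10 passed without any 1 library. FOS, a chain of the AP-1 dimer, was at 19, 16.2 and 22.1 TPM in the disulfiram libraries and 5.38, 9.19 and 4.86 TPM in the controls (log2 fold change 1.46 ± 0.19, adjusted p = 0.000578). FOSB was at 8.11, 7.30 and 8.01 TPM in the disulfiram libraries and 0.93, 1.90 and 0.81 TPM in the controls (log2 fold change 2.02 ± 0.19, adjusted p = 6.42e-05). FOSL1 was at 8.19, 8.04 and 6.13 TPM in the disulfiram libraries and 0.96, 2.01 and 2.74 TPM in the controls (log2 fold change 1.58 ± 0.24, adjusted p = 0.00145). FOSL2 (1.24 ± 0.17), JUN (0.85 ± 0.15) and JUNB (0.62 ± 0.14) rose as well, so that all 4 FOS family genes rose, while JUND did not pass (log2 fold change 0.03 ± 0.14, adjusted p = 0.908). JUNB missed the threshold after median-of-ratios scaling (adjusted p = 0.0613). KLF4, a zinc finger factor, was at 22, 15.7 and 18.3 TPM in the disulfiram libraries and 4.89, 9.90 and 6.97 TPM in the controls (log2 fold change 1.28 ± 0.21, adjusted p = 0.00226). In FOSB and KLF4 control 2 was the highest control and below all disulfiram libraries.

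Feedback genes of the MAP kinase pathway moved both ways, 4 of 19 tested rising and 3 falling. These shares were 21.1% and 15.8%, against 9.38% and 4.94% of all genes. Their median of 0.09 changed sign under another scaling. HBEGF, a ligand of the EGF receptor, was at 8.12, 6.33 and 7.48 TPM in the disulfiram libraries and 1.33, 2.10 and 1.59 TPM in the controls (log2 fold change 1.64 ± 0.17, adjusted p = 0.000146). DUSP5, a nuclear phosphatase of ERK, was at 59.8, 48 and 48.1 TPM in the disulfiram libraries and 11.2, 24.6 and 21 TPM in the controls (log2 fold change 1.47 ± 0.24, adjusted p = 0.00235), and DUSP10, a phosphatase of JNK and p38, rose by a log2 fold change of 0.71 ± 0.11. SPRY4 (-0.79 ± 0.16) and the ETS factors ETV4 (-0.74 ± 0.16) and ETV5 (-0.64 ± 0.11), which follow ERK output, fell, and DUSP6, of the same kind, did not pass (log2 fold change -0.21 ± 0.15, adjusted p = 0.398).

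Glycolysis and hypoxia genes rose in part. Of 23 tested glycolysis genes of 27 listed, 8 rose (34.8%, against 9.38% of all genes) and 0 fell, with a median of 0.27. After median-of-ratios scaling 5 rose. SLC2A1, the glucose carrier GLUT1, was at 79, 95.3 and 115 TPM in the disulfiram libraries and 43.6, 42 and 25.5 TPM in the controls (log2 fold change 1.38 ± 0.21, adjusted p = 0.00157). HK2, the hexokinase of many tumours, was at 42.9, 42.4 and 55.5 TPM in the disulfiram libraries and 25.8, 28.3 and 18.8 TPM in the controls (log2 fold change 0.93 ± 0.19, adjusted p = 0.00853). PFKFB3, which makes the activator of phosphofructokinase, was at 55.7, 57.3 and 58.6 TPM in the disulfiram libraries and 33.2, 31.9 and 20.3 TPM in the controls (log2 fold change 1.01 ± 0.15, adjusted p = 0.00145). For these 3 genes control 3 was the lowest library. PDK1, which holds pyruvate out of mitochondria, rose (1.02 ± 0.22), as did PFKP (0.67 ± 0.14), which missed the threshold after quantile normalization (adjusted p = 0.077). The abundant enzymes GAPDH (-0.29 ± 0.11), PGK1 (0.19 ± 0.16) and LDHA (0.03 ± 0.14) did not pass, and the TPM sum of the 27 genes was 18055 to 22198 in the disulfiram libraries and 18477 to 22710 in the controls.

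Of 21 tested hypoxia response genes of 22 listed, 8 rose (38.1%, against 9.38% of all genes) and 0 fell, with a median of 0.57. Without disulfiram 3 or without control 3, 5 rose. BHLHE40, a repressor of the circadian clock, was at 61.3, 65.3 and 83.1 TPM in the disulfiram libraries and 23.7, 29.4 and 22.6 TPM in the controls (log2 fold change 1.43 ± 0.16, adjusted p = 0.000259). ADM, a vasodilator peptide, was at 77.9, 96.2 and 91.9 TPM in the disulfiram libraries and 34.3, 44.8 and 30.2 TPM in the controls (log2 fold change 1.27 ± 0.15, adjusted p = 0.000269). ANKRD37, a small HIF target, was at 4.82, 3.71 and 4.32 TPM in the disulfiram libraries and 0.77, 0.93 and 1.62 TPM in the controls (log2 fold change 1.34 ± 0.21, adjusted p = 0.00168). All 3 were separate between the groups. BNIP3, a mitophagy receptor (0.97 ± 0.21), and EGLN3, an oxygen-sensing hydroxylase (0.66 ± 0.14), rose. VEGFA, the angiogenic factor, was at 106, 107 and 141 TPM in the disulfiram libraries and 86.9, 91.6 and 74.8 TPM in the controls and did not pass (log2 fold change 0.47 ± 0.15, adjusted p = 0.0531), except among genes with a mean of at least 5 TPM (adjusted p = 0.0483). HIF1A (log2 fold change -0.14 ± 0.25, adjusted p = 0.766) and EPAS1 (log2 fold change -0.10 ± 0.07, adjusted p = 0.386), which encode regulated alpha subunits of HIF, did not pass.

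Few respiratory chain genes passed the test. Of 37 nuclear genes 1 rose and 3 fell (2.7% and 8.11%, against 9.38% and 4.94% of all genes). Their median was -0.03, or 0.05 after quantile normalization, and of the 13 mitochondrial ones limma called 0. Of the nuclear genes, 1 fell without any 1 library other than disulfiram 1, and 0 rose without disulfiram 1, disulfiram 2, control 1 or control 2. At an unadjusted p below 0.05, 1 of the 13 were lower and 0 higher, and 1 fell in the fit of the 6 libraries alone. ATP5MC1, a proton-ring subunit of ATP synthase, was at 242, 191 and 213 TPM in the disulfiram libraries and 322, 309 and 378 TPM in the controls (log2 fold change -0.64 ± 0.12, adjusted p = 0.00391). MT-CO2, of cytochrome oxidase, was at 17178, 18275 and 20448 TPM in the disulfiram libraries and 17974, 17733 and 17955 TPM in the controls (log2 fold change 0.06 ± 0.08, adjusted p = 0.704).

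**Figure D4:**
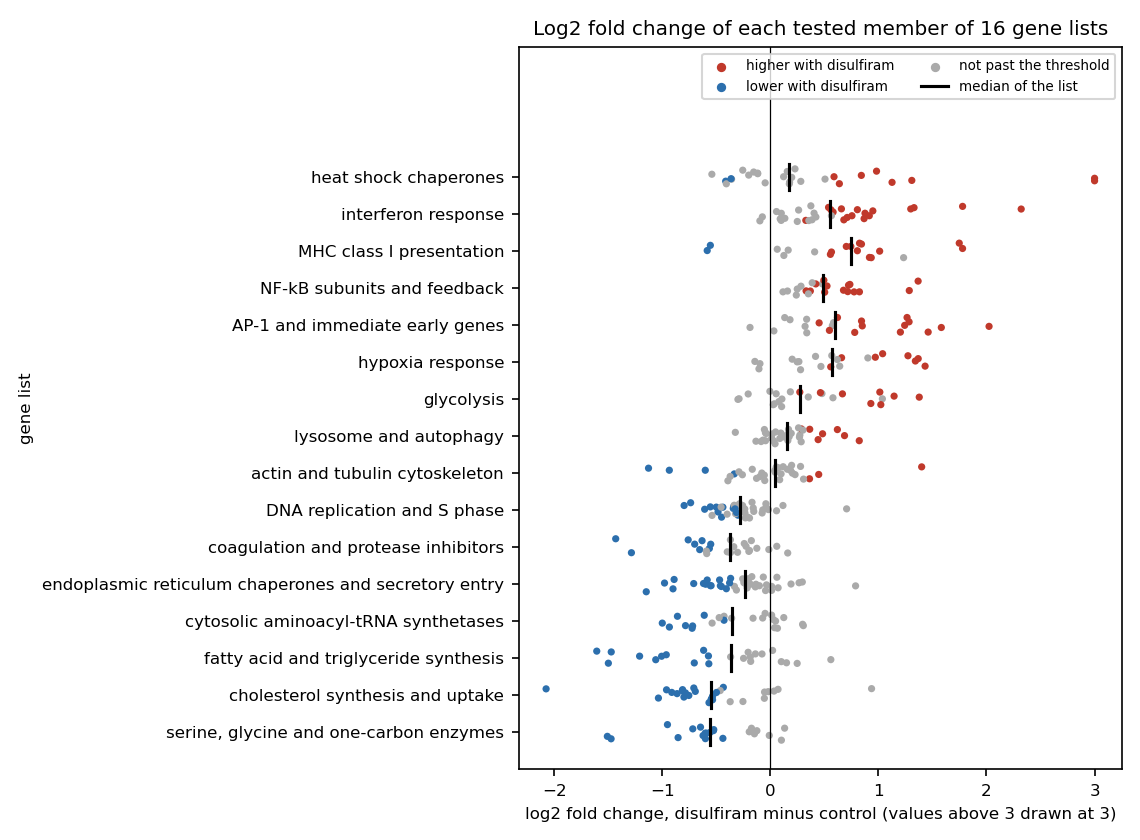
Log2 fold change (disulfiram minus control) of each tested member of 16 gene lists, 1 list a row, with red for members that rose, blue for members that fell, grey for the rest and a bar at the list's median; values above 3 (HSPA6 and CRYAB) are drawn at 3. The medians run from 0.75 for MHC class I presentation to -0.56 for serine, glycine and one-carbon enzymes, and heat shock and cytoskeleton members lie on both sides of 0.

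Genes of cell death and p53 output rose in part. Of 23 tested BCL2 family and death receptor genes of 27 listed, 7 rose and 1 fell, with a median of 0.37. These shares were 30.4% and 4.35%, against 9.38% and 4.94% of all genes. After median-of-ratios scaling and without disulfiram 1, disulfiram 3 or control 3, 4 rose. BIK, a pro-apoptotic protein with only the BH3 domain, was at 20.8, 23.4 and 24.6 TPM in the disulfiram libraries and 5.71, 10.7 and 7.12 TPM in the controls (log2 fold change 1.47 ± 0.19, adjusted p = 0.000475). BCL2L11, known as BIM, was at 17.3, 20.1 and 22.6 TPM in the disulfiram libraries and 12.8, 9.99 and 8.62 TPM in the controls (log2 fold change 0.88 ± 0.14, adjusted p = 0.00219). BBC3, known as PUMA, was at 16.1, 18.8 and 17.8 TPM in the disulfiram libraries and 12.2, 10.4 and 8.62 TPM in the controls (log2 fold change 0.71 ± 0.15, adjusted p = 0.00964). These 3 promote death, whereas the protective MCL1 (0.34 ± 0.09) and CFLAR (0.59 ± 0.14) rose too and the protective BCL2L1 was the 1 called lower (-0.45 ± 0.12), a call that ended without a filter and without disulfiram 1, disulfiram 3 or any 1 control. Of 22 p53 target genes 7 rose (31.8%, against 9.38% of all genes) and 0 fell, with a median of 0.22. The number rising was 4 after median-of-ratios scaling and 3 after quantile normalization, where 1 fell in each. It was 4 without any 1 of the disulfiram libraries, 3 without control 1 and 2 without control 3, and 2 of the 7 passed without any 1 library. CDKN1A, the inhibitor p21, was at 62, 64.6 and 70.0 TPM in the disulfiram libraries and 38.5, 49.9 and 35.2 TPM in the controls (log2 fold change 0.67 ± 0.19, adjusted p = 0.0379), and it missed the threshold after median-of-ratios scaling (adjusted p = 0.0987) and without any 1 library other than control 2 (0.0665 to 0.128). PLK2 (0.84 ± 0.18) and BTG1 (0.60 ± 0.12) rose, and MDM2 did not pass (log2 fold change 0.07 ± 0.18, adjusted p = 0.854).

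Lysosome and autophagy genes rose in 7 of 33 tested cases (21.2%, against 9.38% of all genes) and fell in 0, with a median of 0.16. MCOLN1, a lysosomal calcium channel, was at 53.1, 52.3 and 46.9 TPM in the disulfiram libraries and 28.6, 29.9 and 35.2 TPM in the controls (log2 fold change 0.69 ± 0.10, adjusted p = 0.00146). The proteases CTSB (0.62 ± 0.09) and CTSL (0.48 ± 0.09) rose, as did CTSA (0.36 ± 0.08), which missed the threshold after median-of-ratios scaling (adjusted p = 0.112). The receptor SQSTM1 (log2 fold change 0.09 ± 0.11, adjusted p = 0.671) and the membrane protein LAMP1 (log2 fold change -0.13 ± 0.07, adjusted p = 0.259) did not pass.

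Secreted liver proteins fell in part. Of 24 tested coagulation and protease inhibitor genes of 31 listed, 8 fell (33.3%, against 4.94% of all genes) and 0 rose, with a median of -0.37. The number falling was 5 with the 6 libraries alone, 4 without disulfiram 1 and 3 without control 1, and 3 passed without any 1 library. ITIH2, which binds hyaluronan, was at 14.3, 15.5 and 17.8 TPM in the disulfiram libraries and 67.5, 30.7 and 30.6 TPM in the controls (log2 fold change -1.28 ± 0.25, adjusted p = 0.00548). F10, the clotting factor X, was at 46.1, 51.8 and 54.3 TPM in the disulfiram libraries and 95, 76.6 and 70.8 TPM in the controls (log2 fold change -0.65 ± 0.12, adjusted p = 0.00486). AMBP, the bikunin precursor, was at 1273, 1594 and 1415 TPM in the disulfiram libraries and 2752, 1994 and 1945 TPM in the controls (log2 fold change -0.63 ± 0.12, adjusted p = 0.0062). In all 3 control 1 stood above the other controls. Of 24 tested complement and acute phase genes of 31 listed, 3 rose and 6 fell, against 9.38% and 4.94% of all genes. The share rising was near that of all genes, and the share falling was above it. The list median was -0.10. The number falling was 3 without disulfiram 1, disulfiram 3, control 1 or control 2, and 2 passed without any 1 library. C3, the hub of complement, was at 631, 935 and 773 TPM in the disulfiram libraries and 1562, 1154 and 1137 TPM in the controls (log2 fold change -0.72 ± 0.14, adjusted p = 0.00636), and ORM2, an acute phase protein, fell too (-1.0 ± 0.15). The 2 membrane inhibitors of complement CD55 (1.02 ± 0.17) and CD59 (0.53 ± 0.12) rose.

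Of 19 tested lipoprotein genes of 22 listed, 2 rose and 3 fell (10.5% and 15.8%, against 9.38% and 4.94% of all genes). Their median was -0.25, and 1 rose without disulfiram 1 or any 1 control. APOB, the scaffold of VLDL, was at 11.3, 8.67 and 10.6 TPM in the disulfiram libraries and 38.9, 34.1 and 30.9 TPM in the controls (log2 fold change -1.67 ± 0.28, adjusted p = 0.00272). SCARB1, the HDL receptor, was at 77.5, 104 and 85.9 TPM in the disulfiram libraries and 177, 153 and 137 TPM in the controls (log2 fold change -0.80 ± 0.11, adjusted p = 0.00101), and the sterol exporter ABCG1 fell as well (-0.97 ± 0.18). APOA2, the most abundant member, did not pass (log2 fold change -0.03 ± 0.10, adjusted p = 0.898).

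Most hepatocyte transcription factors and oncofetal genes did not pass, and those that did moved both ways. Of 27 tested of 28 listed, 1 rose and 6 fell (3.7% and 22.2%, against 9.38% and 4.94% of all genes), with a median of -0.12. FOXA1, a pioneer factor, was at 14, 13.6 and 13.3 TPM in the disulfiram libraries and 30.3, 25 and 24.2 TPM in the controls (log2 fold change -0.90 ± 0.10, adjusted p = 0.000278). CEBPA, a factor of the quiescent hepatocyte, was at 107, 127 and 113 TPM in the disulfiram libraries and 231, 187 and 208 TPM in the controls (log2 fold change -0.84 ± 0.12, adjusted p = 0.000839), and its relative CEBPD, of the acute phase, rose to 49, 60.1 and 51.9 TPM in the disulfiram libraries, against 26.9, 33.9 and 36.2 TPM in the controls (log2 fold change 0.72 ± 0.12, adjusted p = 0.00219). GPC3, a glypican of liver tumours, was at 583, 637 and 613 TPM in the disulfiram libraries and 1035, 897 and 839 TPM in the controls (log2 fold change -0.59 ± 0.10, adjusted p = 0.00225). RBP4, the retinol carrier, fell too (-0.77 ± 0.08), and the central factor HNF4A did not pass (log2 fold change 0.13 ± 0.10, adjusted p = 0.455). FOXA1, CEBPA and GPC3 were lower in each disulfiram library than in any control, and CEBPD was higher. ALB, albumin, was at 940.1, 586 and 952 TPM in the disulfiram libraries and 1472, 1312 and 1046 TPM in the controls and did not pass (log2 fold change -0.65 ± 0.23, adjusted p = 0.0796), except after median-of-ratios scaling (adjusted p = 0.0238) and with the GC correction (0.0175). AFP, the fetal albumin relative, was at 169.9, 117 and 114 TPM in the disulfiram libraries and 310.4, 236 and 173 TPM in the controls and did not pass (log2 fold change -0.82 ± 0.36, adjusted p = 0.159).

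Part of the DNA replication genes fell. Of 40 tested genes 13 fell (32.5%, against 4.94% of all genes) and 0 rose, with a median of -0.29, and 4 passed without any 1 library. The number falling was 7 without disulfiram 1, 5 without disulfiram 2 or control 1, 6 without disulfiram 3 and 4 without control 3, and 1 gene rose without disulfiram 2. MCM5, of the replicative helicase, was at 42.3, 45.3 and 43.1 TPM in the disulfiram libraries and 84.2, 71.4 and 74.5 TPM in the controls (log2 fold change -0.80 ± 0.10, adjusted p = 0.000384). MCM7 was at 307, 340.0 and 319.8 TPM in the disulfiram libraries and 513, 457 and 506 TPM in the controls (log2 fold change -0.61 ± 0.09, adjusted p = 0.00138), and MCM6 (-0.74 ± 0.14) and MCM2 (-0.45 ± 0.09) fell too. MCM3 (-0.34 ± 0.09) and MCM4 (-0.30 ± 0.09) completed the 6 helicase subunits, all of which fell, although MCM4 missed the threshold after quantile normalization (adjusted p = 0.0741). Since 4 falls of the whole list passed without any 1 library, not all 6 of these calls held in every such fit. Of 31 tested genes of G2 and mitosis, 2 rose and 5 fell (6.45% and 16.1%, against 9.38% and 4.94% of all genes), with a median of -0.12. Without disulfiram 1, disulfiram 3, control 2 or control 3, 0 of these rose and 3 fell. CCND1, the G1 cyclin D1, was at 49.5, 53.2 and 47.7 TPM in the disulfiram libraries and 88, 84.4 and 81.6 TPM in the controls (log2 fold change -0.75 ± 0.08, adjusted p = 0.000146), and UBE2C, of the anaphase machinery, fell by 0.40 on the log2 scale (SE 0.08). The proliferation marker MKI67 did not pass (log2 fold change -0.31 ± 0.18, adjusted p = 0.272).

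Matrix and cytoskeleton genes held some of the largest single changes among abundant genes. Of 25 tested TGF-beta, matrix and epithelial genes of 32 listed, 3 rose and 7 fell, against 9.38% and 4.94% of all genes. The share rising was near that of all genes, and the share falling was above it. The list median was -0.19, and 4 genes fell without disulfiram 1, control 1 or control 2. The falls were NID1, NID2, COL4A1, LAMA5, LAMC1, HSPG2 and FN1, which encode matrix proteins. NID1, which links laminin to collagen, was at 54.1, 58 and 57.6 TPM in the disulfiram libraries and 141, 117 and 122 TPM in the controls (log2 fold change -1.15 ± 0.10, adjusted p = 6.42e-05). NID2, its relative, was at 58.4, 56.9 and 61.4 TPM in the disulfiram libraries and 94.6, 98.1 and 115 TPM in the controls (log2 fold change -0.79 ± 0.09, adjusted p = 0.000229). COL4A1, of basement membrane collagen, was at 0.58, 0.94 and 0.74 TPM in the disulfiram libraries and 3.34, 2.61 and 2.84 TPM in the controls (log2 fold change -1.17 ± 0.14, adjusted p = 0.000379). The 3 were lower in each disulfiram library than in any control, and COL4A1 entered the test through the controls alone. TIMP1, an inhibitor of matrix proteases, rose instead, to 57.7, 72 and 65.8 TPM in the disulfiram libraries, against 18.9, 34.8 and 31.7 TPM in the controls (log2 fold change 1.21 ± 0.20, adjusted p = 0.00219), as did the repressor SNAI1 (0.78 ± 0.16).

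Of 20 listed symbols of YAP and TEAD targets 18 were found and 17 tested. Of the 17, 2 rose and 2 fell, 11.8% each, against 9.38% and 4.94% of all genes. The rises numbered 1 with a pseudocount of 0.1, under both other filters, both other scalings, the 6 libraries alone and the replicate block, and without disulfiram 2. They numbered 0 without disulfiram 1, disulfiram 3, control 1 or control 3. CTGF, a matrix-associated growth regulator, was at 86.9, 135 and 101.5 TPM in the disulfiram libraries and 284, 216 and 275 TPM in the controls (log2 fold change -1.27 ± 0.20, adjusted p = 0.00168). ANKRD1 was at 82.5, 68.9 and 89.1 TPM in the disulfiram libraries and 171, 188 and 172 TPM in the controls (log2 fold change -1.14 ± 0.16, adjusted p = 0.000842), while CYR61 did not pass (log2 fold change -0.25 ± 0.19, adjusted p = 0.416). Of 31 tested actin and tubulin genes of 32 listed, 3 rose and 4 fell (9.68% and 12.9%, against 9.38% and 4.94% of all genes). The median of 0.05 was -0.06 after median-of-ratios scaling, where 1 rose and 6 fell. Without disulfiram 2, disulfiram 3, control 1 or control 3, 1 rose. ACTB, beta-actin, often used as a reference gene, was at 2056, 2555 and 2167 TPM in the disulfiram libraries and 4533, 5046 and 5185 TPM in the controls (log2 fold change -1.13 ± 0.10, adjusted p = 4.39e-05). Its close relative ACTG1 was at 2694, 3946 and 3368 TPM in the disulfiram libraries and 2316, 3182 and 3170.0 TPM in the controls and did not pass (log2 fold change 0.20 ± 0.14, adjusted p = 0.389). The actins thus differed, with ACTB separate between the groups and ACTG1 overlapping. TUBB, a beta-tubulin, was at 536, 690.2 and 619 TPM in the disulfiram libraries and 1227, 1129 and 1156 TPM in the controls (log2 fold change -0.93 ± 0.09, adjusted p = 6.42e-05). TUBA1B, an alpha-tubulin, was at 1201, 1381 and 1231 TPM in the disulfiram libraries and 1930.5, 1838 and 2011 TPM in the controls (log2 fold change -0.60 ± 0.08, adjusted p = 0.000852). MYL9, a myosin light chain of contractile cells, rose to 19.2, 28.4 and 22 TPM in the disulfiram libraries, against 6.39, 9.44 and 8.62 TPM in the controls (log2 fold change 1.40 ± 0.18, adjusted p = 0.000587).

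Ribosome and noncoding genes showed small or uncertain changes. Of 55 ribosomal protein genes 8 rose and 1 fell (14.5% and 1.82%, against 9.38% and 4.94% of all genes). Their median of 0.10 was -0.005 after median-of-ratios scaling, where 2 rose. Without disulfiram 1 or control 1 the rises numbered 3, and without disulfiram 3, control 2 or control 3 they numbered 4. RPS27 was at 8861, 8250.4 and 8738 TPM in the disulfiram libraries and 5589, 6572 and 6628 TPM in the controls (log2 fold change 0.46 ± 0.08, adjusted p = 0.00254). MYCN, a MYC relative of embryonic and tumour cells, was at 3.18, 4.33 and 2.92 TPM in the disulfiram libraries and 19.3, 13.6 and 11.8 TPM in the controls (log2 fold change -1.82 ± 0.17, adjusted p = 7.26e-05), while MYC did not pass (log2 fold change 0.34 ± 0.24, adjusted p = 0.382) and the MYC antagonist MXD4 rose (0.99 ± 0.12). Of 28 genes of ribosome biogenesis and the MYC network, MYCN was the 1 that fell and MXD4 the 1 that rose. Each was 3.57% of the list, against 4.94% of all genes falling and 9.38% rising. After median-of-ratios scaling 4 fell and without disulfiram 1 3 fell, while 3 rose without disulfiram 2 and 2 without control 2 or control 3.

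Of 18 tested long noncoding RNAs of 23 listed, 3 rose and 1 fell (16.7% and 5.56%, against 9.38% and 4.94% of all genes). Their median was 0.26, and 5 rose without disulfiram 2. SNHG6, a host of small nucleolar RNAs, was at 506, 404 and 412 TPM in the disulfiram libraries and 261, 253 and 238 TPM in the controls (log2 fold change 0.80 ± 0.12, adjusted p = 0.00122). ZFAS1, of the same kind, rose (0.65 ± 0.13) and DANCR fell (-0.41 ± 0.08). Of 589 tested antisense genes 57 (9.68%) rose, and of 495 long intergenic RNAs 51 (10.3%) rose, close to the 9.38% of all genes. Falls were rarer, with 4 antisense genes (0.679%) and 6 long intergenic RNAs (1.21%), against 4.94% of all genes. Whether counting used strand is not stated, so antisense genes cannot be told apart from their partners. RN7SL2, the RNA of the signal recognition particle, was at 259, 410.2 and 432 TPM in the disulfiram libraries and 1465, 836 and 2226 TPM in the controls (log2 fold change -1.96 ± 0.29, adjusted p = 0.00122), and its near-identical copy RN7SL3 was lower too (log2 fold change -1.68 ± 0.32, adjusted p = 0.00563). All 8 tested ribosomal RNA features were called higher, but 7 of them hold identical values and stand for copies of a single RNA. The part that RNA selection in the library preparation, not given in the sources used here, had in these noncoding values was not tested.

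**Figure D5:**
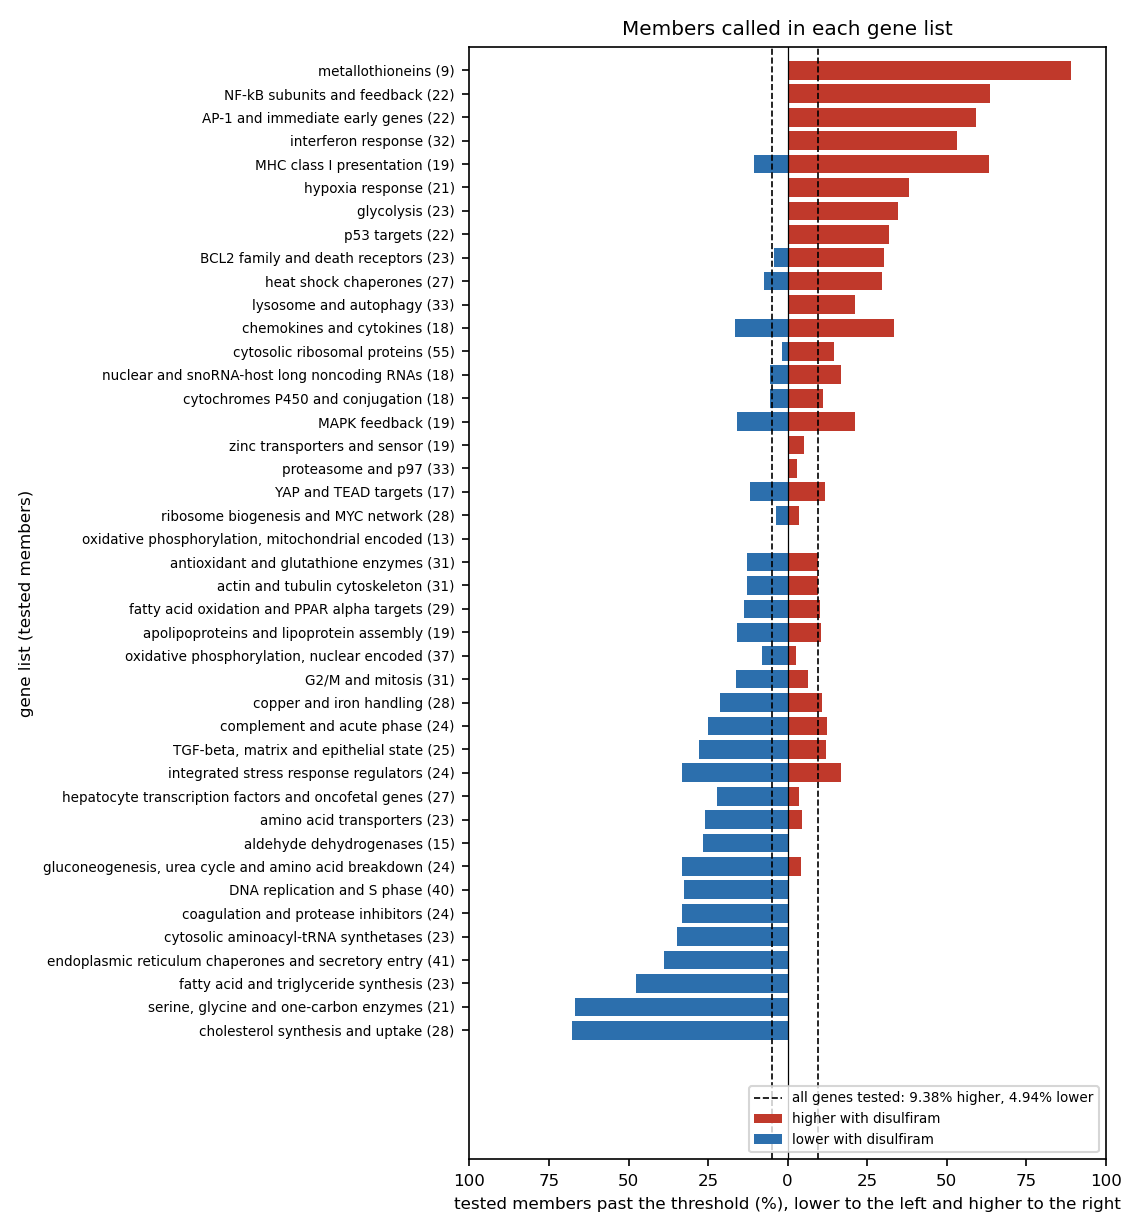
Share of the tested members of each of 42 gene lists that rose (red, to the right) or fell (blue, to the left) with disulfiram, in percent, with the number of tested members in parentheses and dashed lines at the shares of all 14368 genes (9.38% and 4.94%). Metallothioneins stand at the top with 88.9% rising and cholesterol genes at the bottom with 67.9% falling, while zinc carriers, proteasome genes and the respiratory chain lie within or near the dashed lines.

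Markers of other cell types were mostly low. All 12 hepatocyte and hepatoma markers had a mean of at least 1 TPM in either group, summing to 3857 to 4119 TPM in the disulfiram libraries and 4360 to 6039 TPM in the controls, and 3 fell (APOB, TTR and GPC3). In such bulk samples fewer cells of a type and less RNA per cell cannot be told apart. Of 10 leukocyte markers 3 reached 1 TPM (CD14, LYZ and CD68), summing over the list to 133 to 198 TPM in the disulfiram libraries and 118 to 179 TPM in the controls. LYZ rose (log2 fold change 1.05 ± 0.26, adjusted p = 0.0192), at 14.6, 11.1 and 10.9 TPM in the disulfiram libraries and 4.76, 5.12 and 6.14 TPM in the controls, and CD68 rose as given above, whereas CD14, the largest part of the sum in the controls, did not pass (log2 fold change -0.73 ± 0.26, adjusted p = 0.0852). CD14 was at 49.8, 119 and 76.7 TPM in the disulfiram libraries and 169, 99.1 and 127 TPM in the controls. CD3E was at no more than 0.09 TPM, and MS4A1 and FCGR3A were at 0 in all 6 libraries. Of 8 endothelial markers PECAM1 alone reached 1 TPM and rose (log2 fold change 1.52 ± 0.24, adjusted p = 0.00207), while KDR, TEK and CLEC4M were at 0 in all 6 libraries. The fibroblast list summed to 61.5 to 74.4 TPM in the disulfiram libraries and 71.8 to 86.2 TPM in the controls, with 4 of 8 at 1 TPM and 0 called. All 6 cholangiocyte markers reached 1 TPM, at 991 to 1069 TPM summed in the disulfiram libraries and 1007 to 1156 TPM in the controls, with 2 rising.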

How the data were processed

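RNA of Huh7 cells was sequenced, and the deposited table gives TPM per gene, made by the authors. The submitters' processing notes name HISAT2 2.0, StringTie 1.3.0 and the build hg38. The table lists 59191 features, 307 of them assembled loci without an Ensembl ID, and 58611 IDs were named from GENCODE 29. TPM keeps no read depth, so the precision of single values is unknown.

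The values were taken as log2(TPM + 1), with a filter of at least 1 TPM in 3 of the 6 libraries. limma 3.58.1 in R 4.3.3 (trend, 12 libraries of 4 groups in 1 fit, 8 residual degrees of freedom) gave differences of disulfiram minus control, with Benjamini-Hochberg adjustment over all 14368 features and a threshold of 0.05. The fits were tested on simulated data. The alternatives were 2 other pseudocounts (0.1 and 5), other filters, median-of-ratios scaling, quantile normalization, no trend, the 6 libraries alone, a replicate block and leaving out each library. A further one left out disulfiram 2 together with the second library of cells given both drugs. A correction for GC content was chosen after seeing the data.

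The genes named by rule were the 14 largest rises and the 14 largest falls among eligible genes. Eligible genes had a mean of at least 5 TPM in 1 group, separate groups and a call that held without any 1 library. Up to 5 of each list were added, taken where possible from calls that held without any 1 library. Further list members were named after their values were seen. The comparison and the 42 lists were chosen with earlier results of these data known.

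Same-numbered libraries of the 2 groups did not deviate together (Pearson's r across genes -0.169, -0.127 and -0.0979), and the main fit took no pairing. Such correlations cannot show whether same-numbered samples were handled together, since they also carry differences between single libraries. Table columns without a sample numbered 0. Some genes of these lists are counted but not reported here by name.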

Additional observations from a re-analysis of the deposited data

How the results depend on the processing

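The number of genes that rose (1348) depended on the scaling and on single libraries. It was 797 after median-of-ratios scaling and 861 after quantile normalization, and it ranged from 754 to 1331 when 1 library was left out. The number that fell (710) ranged from 447 to 649 when 1 library was left out, and was 978 and 956 under the other scalings. The median log2 fold change of all genes, 0.09, was -0.0017 after median-of-ratios scaling and -0.0071 after quantile normalization. Both scalings align the libraries on a common level, so a median near 0 follows from them. Without them, the median difference from the control mean was 0.141 in disulfiram 1, -0.006 in disulfiram 2 and 0.136 in disulfiram 3. The replicate block gave 1181 rises and 642 falls, and whether the replicate numbers pair samples is not known. Other pseudocounts, filters, the fit without a trend, the 6 libraries alone and the GC correction gave 1008 to 1784 rises and 551 to 959 falls. Leaving out disulfiram 2 together with the second library of cells given both drugs gave 1783 rises and 771 falls. Of the 176 genes named by rule, 170 were called, 10 of these missed the threshold under some alternative and 0 changed direction. Most of the 170 had been chosen as passing without any 1 library, so those fits could not move them. Of all 2058 calls, 924 passed without any 1 library. Depth is unknown, which limits genes with low TPM most.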
